A study of Mus musculus with 12 samples.

Results

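The inter-alpha-trypsin inhibitor heavy chain genes Itih1 to Itih5 were followed across adrenal RNA of mice exposed to aspartame, to an NMDA receptor antagonist, or to both. Their probe sets were taken as all those whose single gene symbol was Itih1 to Itih5, which gave 5 of the 26533 probe sets of the table, 1 for each gene, and 5 of the 16244 genes that such probe sets named. The family was chosen by its values in ASP against CON in an earlier analysis of the same arrays, where Itih3 was higher and the other heavy chains were not. The differences of ASP from CON, of ASP+CGP from ASP and their interaction are therefore described below without a test. All 5 genes had a signal of at least 6 (log2) in every group and passed the filter on dim genes.

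The adrenals came from male C57Bl/6J mice aged 21 weeks, and the RNA of all mice of a group, in equal parts, made up 1 pool per group. Mice of CON received neither compound. Mice of CGP were exposed to CGP 39551, which competes with glutamate at the NMDA receptor, at 5 mg per kg in the drinking water of the dams from conception to weaning at postnatal day 28. Mice of ASP were exposed to the sweetener aspartame at 46 mg per kg in the drinking water from before birth to 21 weeks, and mice of ASP+CGP to both. Each pool was hybridised to 3 arrays. The arrays of a group are thus measurements of the same RNA, and every p-value below measures the spread between arrays and not between mice.

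Inter-alpha-trypsin inhibitor is a plasma protein made mainly in the liver, in which heavy chains are joined to the light chain bikunin by a chondroitin sulfate chain. The heavy chains can be passed from bikunin to hyaluronan, a long sugar polymer of the extracellular matrix, by the enzyme TSG-6. ITIH1, ITIH2 and ITIH3 take part in this transfer, ITIH4 is an acute phase protein that circulates without bikunin, and ITIH5 is made mostly outside the liver. Itih3 transcripts are also known from brain.

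Itih4, Itih3 and Itih1 lie next to each other in that order on chromosome 14, with no other protein-coding gene between them in RefSeq (GRCm38.p6), and Itih2 and Itih5 lie side by side on chromosome 2. Their start site windows are shown because Itih3 and Itih4 are neighbours whose differences from CON had opposite signs in ASP. Each window runs from 250 bases before the annotated start to 50 bases after it, as given by RefSeq. The windows are chr14:30886226-30886525 on the plus strand for Itih4, chr14:30923538-30923837 on the minus strand for Itih3 and chr14:30943240-30943539 on the minus strand for Itih1. They are written 5′ to 3′ on the strand of the gene, with motif matches in capitals.
Itih4: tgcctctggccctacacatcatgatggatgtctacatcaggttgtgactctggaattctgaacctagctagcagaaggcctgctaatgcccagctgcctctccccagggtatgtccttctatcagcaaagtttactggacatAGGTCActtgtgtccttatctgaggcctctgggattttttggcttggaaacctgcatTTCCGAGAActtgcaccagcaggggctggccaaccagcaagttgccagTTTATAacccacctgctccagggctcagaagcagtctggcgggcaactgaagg
Itih3: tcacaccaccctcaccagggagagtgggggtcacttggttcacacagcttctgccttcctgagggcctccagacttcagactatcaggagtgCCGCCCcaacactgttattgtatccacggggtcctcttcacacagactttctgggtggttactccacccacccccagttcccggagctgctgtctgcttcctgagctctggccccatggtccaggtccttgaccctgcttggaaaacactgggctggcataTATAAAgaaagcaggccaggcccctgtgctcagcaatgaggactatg
Itih1: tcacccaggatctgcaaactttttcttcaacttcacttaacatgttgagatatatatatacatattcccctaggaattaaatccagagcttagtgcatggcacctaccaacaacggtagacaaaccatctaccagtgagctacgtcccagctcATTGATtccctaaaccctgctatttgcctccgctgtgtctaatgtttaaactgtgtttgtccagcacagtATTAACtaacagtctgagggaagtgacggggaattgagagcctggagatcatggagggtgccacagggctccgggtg

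The windows held 2 CG dinucleotides for Itih4, 3 for Itih3, 5 for Itih1, 2 for Itih2 and 9 for Itih5, against a median of 7 over the 32817 windows of the genome. Short letter patterns of promoter elements and liver factors were searched on both strands, and their share among all windows is given beside each. The Itih3 window held the letters of a TATA box (TATAAA, 13.6% of all windows), starting at the 4th transcribed base, and a GC box (GGGCGG, 35.6%). The Itih4 window held the TATA box letters as well, on the opposite strand across the start, together with a nuclear receptor half-site (AGGTCA, 16.3%) and the letters of a STAT site (TTCNNNGAA, 8.29%). The Itih1 window held an HNF1 half-site (GTTAAT, 7.1%) and the letters of an HNF6 site (ATCAAT, 7.54%). The Itih2 window held the HNF6 letters and those of a C/EBP site (TTGCNNAA, 10.8%), and the Itih5 window the HNF6 letters and 3 GC boxes, 1 of which directly follows the HNF6 letters. The CCAAT box (37.4% of all windows), the letters CAAAGTCCA of an HNF4 site (0.475%) and the letters TGTTTAC of a FOXA site (3.65%) were in none of the 5 windows. Of the patterns found, Itih3 shared the TATA box letters with Itih4 and the GC box with Itih5, and none with Itih1 or Itih2.

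The arrays of a pool correlated across probe sets with r of 0.989 to 0.995, and those of CON and ASP with r of 0.926 to 0.934, so the ASP arrays stood apart. The interquartile range of the signals was 2.20 to 2.29 (log2) on the ASP+CGP arrays and 2.58 to 2.62 on the CON arrays, and the median difference over the 15900 genes tested was -0.17 for ASP+CGP minus CON and -0.18 for ASP+CGP minus CGP. Scaling the arrays by cyclic loess brought both medians to 0.01, and values under this scaling are given beside calls of the heavy chains that it changed. All 11 adrenal cortex markers and all 11 chromaffin cell markers measured lay above 6 in every pool, with Cyp11b1 at 13.81 to 13.91 and Th at 12.97 to 13.39 as pool means. This level does not set the labelled tissue apart from others. All 17 hepatocyte markers measured lay above 6 in every pool as well, with Alb at 12.42 to 13.64.

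**Figure D1:**
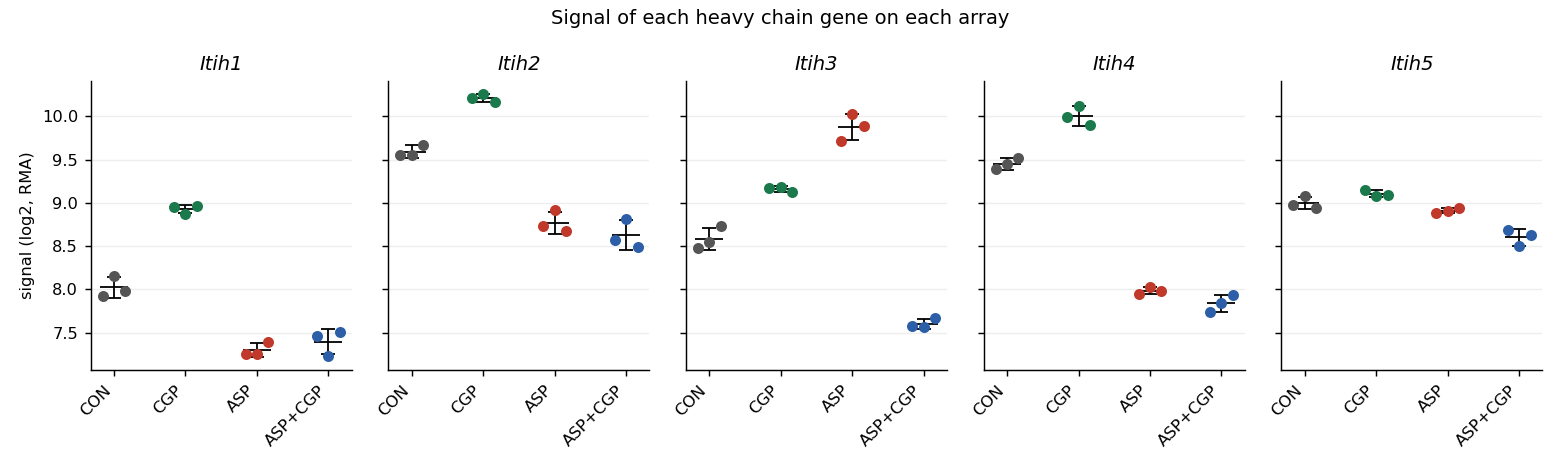
Signal (log2, RMA, vertical axis) of Itih1 to Itih5 on each array, by pool (horizontal axis). Points are arrays, and the horizontal mark and bars give the mean and SD of 3 arrays; Itih3 is highest on the ASP arrays (9.72 to 10.02), whereas Itih1, Itih2 and Itih4 are highest on the CGP arrays.

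Itih3, one of the heavy chains that bikunin carries, read 8.48, 8.55 and 8.73 (log2 signal) on the CON arrays. It read 9.17, 9.18 and 9.12 on the CGP arrays, 9.72, 10.02 and 9.89 on the ASP arrays, and 7.57, 7.57 and 7.67 on the ASP+CGP arrays. From high to low the order was ASP, CGP, CON and ASP+CGP, and the arrays of no group overlapped with those of another. The smallest gap between neighbours in that order was 0.39, between CGP and CON.

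Itih4, the heavy chain that is an acute phase protein, had a different order. Its signals were 9.39, 9.44 and 9.52 in CON, 9.99, 10.12 and 9.90 in CGP, 7.94, 8.03 and 7.98 in ASP, and 7.74, 7.84 and 7.93 in ASP+CGP. CGP was highest, CON next, and both aspartame pools lay far below. ASP and ASP+CGP did not overlap, but the gap between their arrays was 0.01 and smaller than the spread within either pool.

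Itih1 read 7.92, 8.16 and 7.99 in CON, 8.95, 8.87 and 8.96 in CGP, 7.25, 7.25 and 7.39 in ASP, and 7.45, 7.23 and 7.51 in ASP+CGP. Itih2 read 9.55, 9.55 and 9.67 in CON, 10.22, 10.25 and 10.17 in CGP, 8.73, 8.91 and 8.67 in ASP, and 8.57, 8.82 and 8.49 in ASP+CGP. Both genes, which encode the chains of the main plasma form together with bikunin, had CGP highest and CON second, and their ASP and ASP+CGP arrays overlapped.

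Itih5, the heavy chain known mostly from outside the liver, varied least. Its signals were 8.98, 9.08 and 8.95 in CON, 9.15, 9.08 and 9.09 in CGP, 8.88, 8.90 and 8.94 in ASP, and 8.69, 8.50 and 8.63 in ASP+CGP. CGP and CON overlapped, ASP lay below CON by a gap of 0.01, and ASP+CGP was lowest with a gap of 0.19 to ASP.

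The comparison of CGP with CON set the pool of adult mice exposed to the antagonist during development against the pool exposed to neither compound. Itih1, Itih2, Itih3 and Itih4 rose together, and Itih5 was not called. Itih1 rose the most of the family, by 0.90 ± 0.08 (log2 difference and its SE over 3 arrays a pool) or 1.87-fold (adjusted p = 3.81e-06 by limma). The other 3 rose by less, Itih2 1.54-fold (adjusted p = 2.40e-04), Itih3 1.49-fold (adjusted p = 3.28e-04) and Itih4 1.47-fold (adjusted p = 1.19e-04). Itih5 differed by 0.11 ± 0.06 (adjusted p = 0.667). Thus 4 of the 5 heavy chains were called higher, in a comparison where 1.62% of the 15900 genes tested were called higher and 0.0189% lower. A call here is an adjusted p under 0.05 and a fold of at least 1.4. The CON arrays of this comparison are also those against which Itih3 had been singled out in ASP and the publication names Itih4 as lower. With a fold minimum of 1.8 in place of 1.4, only Itih1 was called.

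In the combined exposure the same 4 genes lay below control. Against CON, Itih3 fell 1.98-fold (log2 difference -0.98 ± 0.08, limma adjusted p = 6.60e-07), Itih2 1.95-fold (adjusted p = 1.38e-06) and Itih1 1.54-fold (adjusted p = 2.65e-05). These p-values are not independent of the choice of the family, because Itih3 had been singled out against the same CON arrays. Itih4 was 3.05-fold lower (-1.61 ± 0.07). This value is a description, because the publication names Itih4 for this comparison. Itih5 differed by -0.40 ± 0.06 (adjusted p = 9.39e-05), below the fold minimum. The count of 4 of 5 called lower stands beside 8.32% of all genes called lower and 6.09% called higher. Under cyclic loess, 466 genes were called lower and 753 higher in place of 1323 and 969, and with each array centred on its median 342 and 2301. Itih1 lost its call under both scalings (-0.47 in each).

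ASP+CGP against CGP gives the aspartame difference among mice that had all received the antagonist. The difference itself uses none of the arrays on which Itih3 was singled out. Its SE and p-value come from the fit of all groups, and so include the spread of the ASP and CON arrays. With only the ASP+CGP and CGP arrays in the fit, the SE of Itih3 was 0.0666 (limma adjusted p = 2.2e-08). All 5 heavy chains fell. The publication names Itih4 as lower on these same ASP+CGP arrays than in CON. The p-value of Itih4 is therefore not independent of that choice. Itih4 fell 4.49-fold (log2 difference -2.17 ± 0.07, limma adjusted p = 6.56e-12), Itih2 3.00-fold (-1.59 ± 0.08, adjusted p = 1.96e-09), Itih3 2.94-fold (-1.55 ± 0.08, adjusted p = 1.32e-09) and Itih1 2.89-fold (-1.53 ± 0.08, adjusted p = 1.71e-09). Itih5 fell by the least, 1.42-fold (-0.50 ± 0.06, adjusted p = 1.29e-05). Of all genes tested, 11.0% were called lower and 8.57% higher. The call for Itih5 rested on its fold being just past the minimum. It was lost under cyclic loess (-0.17 ± 0.07, adjusted p = 0.0692), with centred arrays (-0.32) and with array weights (-0.48), and also without CGP array 1 (-0.48) or ASP+CGP array 2 (-0.45). Under cyclic loess 731 genes were called lower and 905 higher in place of 1743 and 1363, and with centred arrays 517 and 2819.

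The values of ASP against CON are those that singled out the family, and are described only. Itih3 was 2.45-fold higher in ASP (log2 difference 1.29 ± 0.08). In the same comparison Itih4 was 2.76-fold lower (-1.47 ± 0.07), Itih2 1.77-fold lower (-0.82 ± 0.08) and Itih1 1.65-fold lower (-0.72 ± 0.08). Itih5 differed by -0.09 ± 0.06, and by 0.09 under cyclic loess. Of all genes, 9.81% passed the call thresholds as higher and 8.13% as lower in this comparison, or 1916 and 476 genes under cyclic loess in place of 1559 and 1292. Among the 15900 differences, that of Itih4 was the 4th lowest, and 555 genes including Itih3 were at or above the value of Itih3.

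ASP+CGP against ASP compares mice that had all received aspartame, and shares the ASP arrays. Itih3 was 4.83-fold lower in ASP+CGP (log2 difference -2.27 ± 0.08). The other members differed by 0.10 ± 0.08 for Itih1, -0.14 ± 0.08 for Itih2, -0.14 ± 0.07 for Itih4 and -0.30 ± 0.06 for Itih5, and with centred arrays these values became 0.25 for Itih1, 0.01 for Itih2, 0.01 for Itih4 and -0.15 for Itih5. Of all genes, 13.3% passed the thresholds as lower and 6.55% as higher, 2121 and 1041 genes, which became 1946 and 599 under cyclic loess and 1517 and 2548 with centred arrays.

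**Figure D2:**
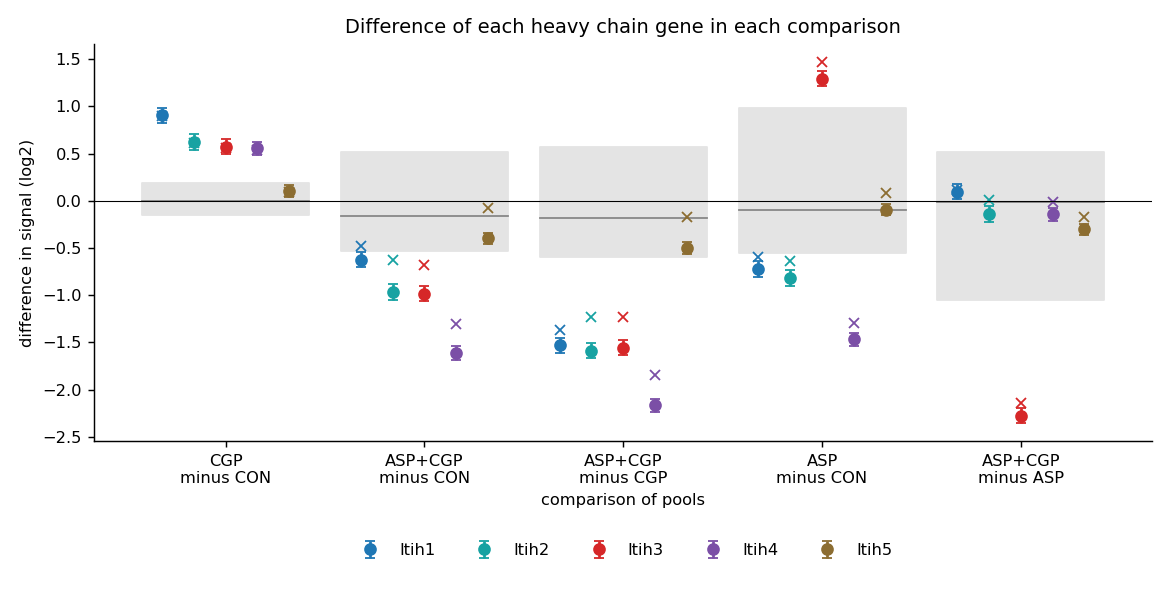
Difference in signal (log2, vertical axis) of Itih1 to Itih5 in each comparison of pools (horizontal axis). Filled points are the differences with SE bars, crosses the same differences under cyclic loess, grey boxes the 5th to 95th percentile of all 15900 genes and grey lines their median; Itih3 lies with Itih2 in the comparisons of ASP+CGP with CON (-0.98 and -0.96) and with CGP (-1.55 and -1.59), and apart from it in both comparisons that use the ASP arrays, at 1.29 and -2.27.

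Itih3 was then set against each paralogue on the same array, so that a difference shared by both genes drops out. In ASP against CON, Itih3 gained 2.01 ± 0.14 (log2, SE over the 3 arrays of each pool) on Itih1, 2.11 ± 0.07 on Itih2, 2.76 ± 0.07 on Itih4 and 1.38 ± 0.13 on Itih5. These 4 values are a description, since they follow from the choice of the family. From CGP to ASP+CGP its difference from Itih1 changed by -0.03 ± 0.08 and that from Itih2 by 0.03 ± 0.12, and the arrays of the pools overlapped in both. Under cyclic loess the change relative to Itih1 was 0.14. The exact two-sided permutation test over 3 against 3 arrays (p = 0.8 and p = 0.7) cannot go below 0.1, so it could neither show a difference nor its absence.

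Against Itih4 and Itih5 the changes were larger. From CGP to ASP+CGP, Itih3 gained 0.61 ± 0.06 on Itih4 and changed by -1.05 ± 0.06 relative to Itih5, with no overlap between groups (exact permutation p = 0.1 each). From CON to CGP, Itih3 changed by -0.33 ± 0.11 relative to Itih1 and by 0.47 ± 0.10 relative to Itih5 (exact p = 0.1 each), by -0.05 ± 0.04 relative to Itih2 (exact p = 0.3) and by 0.02 ± 0.06 relative to Itih4 (exact p = 0.9). The changes from CON share the arrays against which Itih3 had been singled out. For the 8 pairs tested the lowest adjusted p was 0.2, and with a floor of 0.1 the exact test could not have shown a difference.

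**Figure D3:**
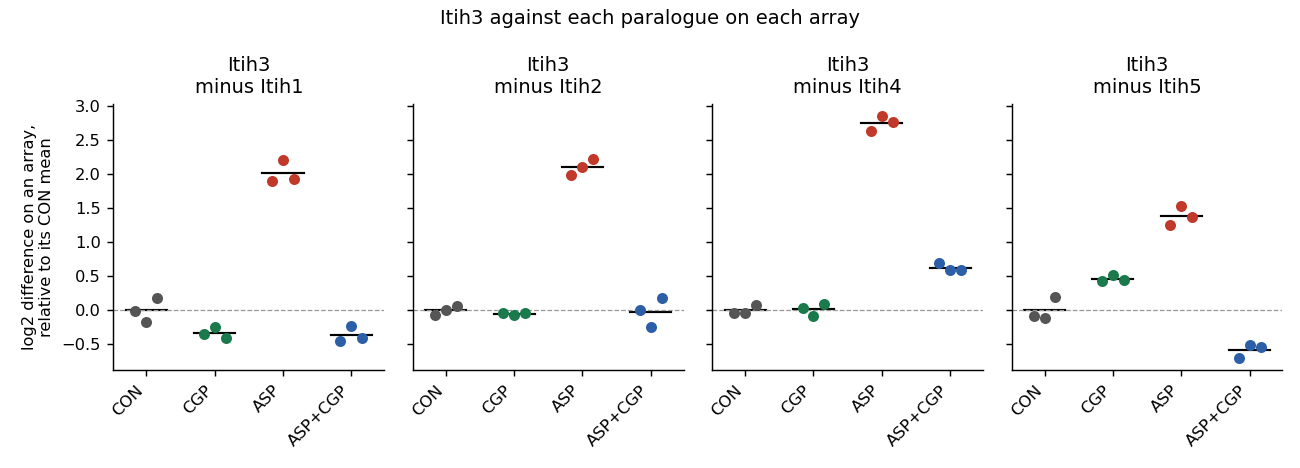
Itih3 minus each paralogue on each array (log2, relative to the mean of the CON arrays, vertical axis) in the 4 pools (horizontal axis). Points are arrays and black lines pool means; the ASP arrays lie above all others in each panel, by mean changes of 1.38 to 2.76 from CON, and the CGP and ASP+CGP arrays overlap in the panels for Itih1 and Itih2.

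Among the partners of the heavy chains, Ambp, which encodes bikunin, had CGP highest and CON second, as Itih1, Itih2 and Itih4 did. Its signal was 9.86, 9.89 and 9.98 in CON, 10.81, 10.86 and 10.66 in CGP, 9.05, 9.01 and 8.90 in ASP, and 8.33, 8.31 and 8.31 in ASP+CGP. No groups overlapped, and ASP+CGP was lowest. Ambp rose 1.82-fold in CGP against CON (limma adjusted p = 7.84e-07) and fell 5.50-fold in ASP+CGP against CGP (adjusted p = 8.51e-13). In ASP+CGP against CON it was 3.02-fold lower, a description, because Ambp too is named in the publication for that comparison. Both comparisons with a p-value share arrays with it, so they are not independent of that choice. In ASP against CON, where Itih3 was higher, Ambp differed by -0.92 ± 0.06. In ASP+CGP against ASP it differed by -0.67 ± 0.06, where Itih1, Itih2 and Itih4 differed by 0.10, -0.14 and -0.14.

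Tnfaip6, which encodes the transfer enzyme TSG-6, read 7.17, 7.38 and 7.43 in CON, 7.80, 7.88 and 7.75 in CGP, 7.71, 7.88 and 7.77 in ASP, and 6.73, 6.87 and 6.67 in ASP+CGP. Its CGP and ASP arrays overlapped and lay above CON. ASP+CGP had the lowest mean, as for Itih2, Itih3, Itih4, Itih5 and Ambp. Tnfaip6 fell 1.48-fold in ASP+CGP against CON (limma adjusted p = 4.01e-05) and 2.08-fold against CGP (adjusted p = 1.06e-07). In CGP against CON it differed by 0.48 ± 0.08 (adjusted p = 0.00132), just short of the fold minimum, which it passed under cyclic loess (0.49). It differed by 0.46 ± 0.08 in ASP against CON.

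The genes of hyaluronan and chondroitin sulfate metabolism were taken from a list of 43, of which 36 were measured by a probe set of their own. In CGP against CON, 1 of 36 was called higher (Ambp) and none lower, beside 1.62% and 0.0189% of all genes. The median difference was 0.02 beside 0.00 for all genes. In ASP+CGP against CON, 2 of 36 were called higher and 4 lower, beside 6.09% and 8.32% of all genes (median -0.22 beside -0.17). In ASP+CGP against CGP, 3 were called higher and 6 lower, beside 8.57% and 11.0% (median -0.22 beside -0.18). In ASP against CON, where no test is made, 4 passed the thresholds as higher and 7 as lower, beside 9.81% and 8.13% (median -0.11 beside -0.10). Under cyclic loess these counts became 2 higher and 0 lower in CGP against CON, where Tnfaip6 was added, 1 and 2 in ASP+CGP against CON, 2 and 2 in ASP+CGP against CGP, and 7 and 3 in ASP against CON.

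By role, the genes of hyaluronan breakdown (6 measured) had no call in any of the 3 tested comparisons. Of the 5 hyaluronan receptors Layn alone was called, 1.4-fold lower in ASP+CGP against CGP (limma adjusted p = 8.82e-04). Ugdh, which makes the UDP-glucuronate that hyaluronan and chondroitin sulfate are built from, fell 1.52-fold in ASP+CGP against CON (adjusted p = 1.37e-06) and 1.64-fold against CGP (adjusted p = 9.94e-08), and Has1, a hyaluronan synthase, was not called. Of 13 genes that build the chondroitin sulfate linker and chain, the sulfotransferase gene Chst11 fell in both comparisons (1.56-fold and 1.47-fold) and the xylosyltransferase gene Xylt2 fell 1.42-fold against CGP. None of the calls for Layn, Ugdh, Chst11 and Xylt2 remained under cyclic loess.

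Of the 8 hyaluronan-binding proteoglycans and link proteins, 2 were called higher in ASP+CGP against CON and 3 against CGP, none was called lower, and the other 6 and 5 were not called. Hapln3 was at least 1.43-fold higher in ASP+CGP than in CON, where its mean lay under 6, and Hapln2, a link protein of nodes of Ranvier, was 1.48-fold higher (limma adjusted p = 5.79e-04). Against CGP, Hapln2 rose 1.59-fold, Ncan, the brain proteoglycan neurocan, 1.45-fold, and Hapln3 1.41-fold. Under cyclic loess Hapln2 and Ncan kept their calls against CGP and Hapln3 did not, and against CON Hapln2 and Hapln3 lost theirs and Ncan gained one.

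**Figure D4:**
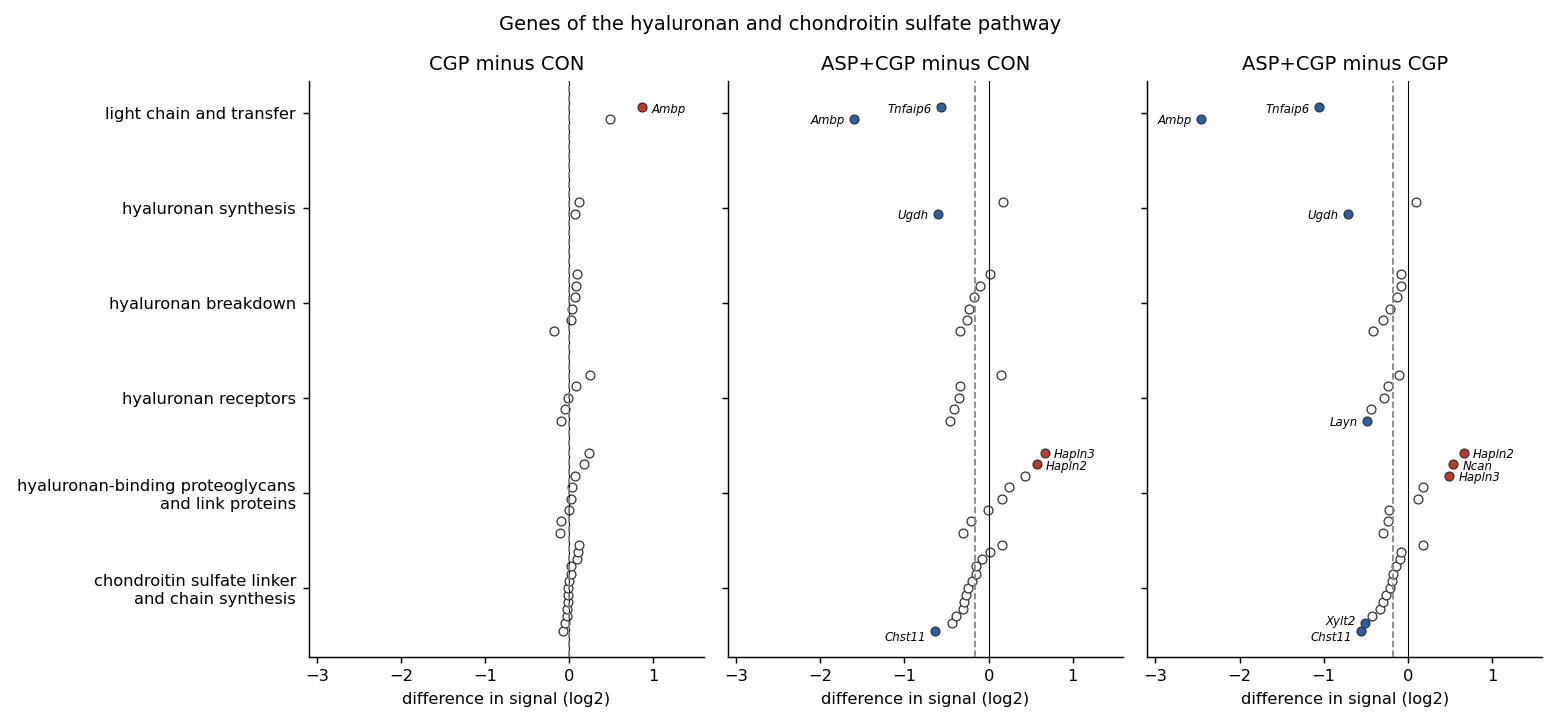
Difference in signal (log2, horizontal axis) of the 36 measured genes of the hyaluronan and chondroitin sulfate lists (rows) in the 3 tested comparisons (panels). Each point is a gene, red where called higher, blue where called lower and white where not called, and the dashed line is the median of all genes; Ambp has the largest difference in each panel, at 0.87, -1.59 and -2.46.

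The genes most like Itih3 were found by the root-mean-square distance between the 12 array values, each gene centred on its own mean, as a description over arrays that come from 4 pools. They were Mfsd2a, a lysophospholipid transporter (distance 0.20, Pearson's r = 0.99 over 12 arrays), Agt, the angiotensin precursor (0.23, r = 0.98), Slco1a4, an organic anion transporter (0.26, r = 0.97), Nrn1, the neuronal protein neuritin (0.26, r = 0.97), and Gpld1, a plasma phospholipase (0.28, r = 0.96). Each had its highest mean in ASP and its lowest in ASP+CGP. Agt, for example, had pool means of 9.59 in CON, 10.09 in CGP, 11.34 in ASP and 8.56 in ASP+CGP. Slco1a4 lay under 6 in CON (5.57) and ASP+CGP (5.02). The distances of Itih3 to its own paralogues were 0.73 for Itih5, 0.93 for Itih2, 0.99 for Itih1 and 1.13 for Itih4. All these distances include the ASP and CON arrays that singled out Itih3, so they follow in part from the choice of the family.

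Itih4 was most like Mat1a, the liver enzyme of S-adenosylmethionine synthesis (distance 0.11), followed by the haem carrier Hpx, the tyrosine breakdown enzyme Hpd, the protease inhibitor Mug1 and the carboxypeptidase subunit Cpn1, all with r of 0.99 over the same 12 arrays. Those nearest to Itih1 were led by Cfi, complement factor I (0.12), and those nearest to Itih2 by Cth (0.08), the enzyme that makes cysteine from cystathionine. The distances among Itih1, Itih2 and Itih4 were 0.22 to 0.39.

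Markers of liver cells moved with Itih1 to Itih4 in the 3 tested comparisons, and in ASP against CON with Itih1, Itih2 and Itih4 but not Itih3. In whole tissue fewer cells of a type and less RNA per cell cannot be told apart. Of 18 hepatocyte markers 17 were measured, and none had a pool mean under 6, with Alb, which encodes albumin, at 12.42 to 13.64. In CGP against CON 12 of the 17 were called higher, beside 1.62% of all genes. In ASP+CGP against CON 16 were called lower, beside 8.32% of all genes, and against CGP all 17, beside 11.0%. The publication names many of these markers, among them Apoa1, Fgb and Hpx, as lower in ASP+CGP than in CON. All 3 comparisons share arrays with that one, so these counts are a description. The median differences of the list were 0.58, -1.32 and -1.97, beside 0.57, -0.98 and -1.55 for Itih3. In ASP against CON 13 of 17 passed the thresholds as lower (median -0.95), and in ASP+CGP against ASP 4 of 17 (median -0.41). The summed level of the list was 15.67 to 15.71 (log2) on the CON arrays, 16.20 to 16.22 on CGP, 15.02 to 15.03 on ASP and 14.59 to 14.68 on ASP+CGP. Its part in the differences of the heavy chains was not tested.

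Markers of brain cells moved with Itih3 on the ASP arrays. The summed level of 15 astrocyte markers was 13.49 to 13.51 on the CON arrays, 13.57 to 13.63 on CGP, 14.71 to 14.80 on ASP and 13.14 to 13.21 on ASP+CGP. In ASP against CON 13 of the 15 passed the thresholds as higher (median 2.12), as did all 14 neuronal and all 12 oligodendrocyte markers measured (medians 2.01 and 1.74). Gfap, the intermediate filament of astrocytes, had pool means of 6.49 in CON, 6.37 in CGP, 8.61 in ASP and 6.63 in ASP+CGP. Gjb6 lay under 6 in every pool but ASP, and Aqp4 lay under 6 in CON. Agt, which is in this list and is also made by liver, was 1 of the 2 astrocyte markers called higher in CGP against CON and 1 of the 4 called lower in ASP+CGP against CGP, where 2 others (Ntsr2 and Mlc1) were called higher. Under cyclic loess the latter counts were 2 lower and 1 higher. The neuronal and oligodendrocyte lists had no call in these comparisons, but under cyclic loess 2 neuronal and 2 oligodendrocyte markers were called higher in ASP+CGP against CGP. In ASP+CGP against CON, where Itih3 fell, 2 neuronal markers were called higher and no oligodendrocyte marker was called, or 2 and 1 under cyclic loess. Of the 15 astrocyte markers, 1 was called higher and 2 lower there, or 1 and 1 under cyclic loess. The part of these markers in the level of Itih3 was not tested.

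For the other marker lists, in ASP against CON 8 of 12 endothelial markers (median -0.50), 4 of 11 adrenal cortex and 4 of 11 chromaffin cell markers passed the thresholds as lower and 3 of 11 choroid plexus markers as higher. Under cyclic loess these counts were 0, 1, 3 and 2, with 1 chromaffin cell marker higher. In CGP against CON no gene of the choroid plexus, endothelial, fibroblast, adipocyte, adrenal cortex or chromaffin cell lists was called. In ASP+CGP against CGP, no adrenal cortex or adipocyte marker was called, 1 of 11 chromaffin cell, 1 of 10 fibroblast and 2 of 12 endothelial markers were called lower, and of 11 choroid plexus markers 1 was called higher and 1 lower. Of these calls the fibroblast list kept 1 lower under cyclic loess and the others had none, while 1 of 9 adipocyte markers was then called lower.

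**Figure D5:**
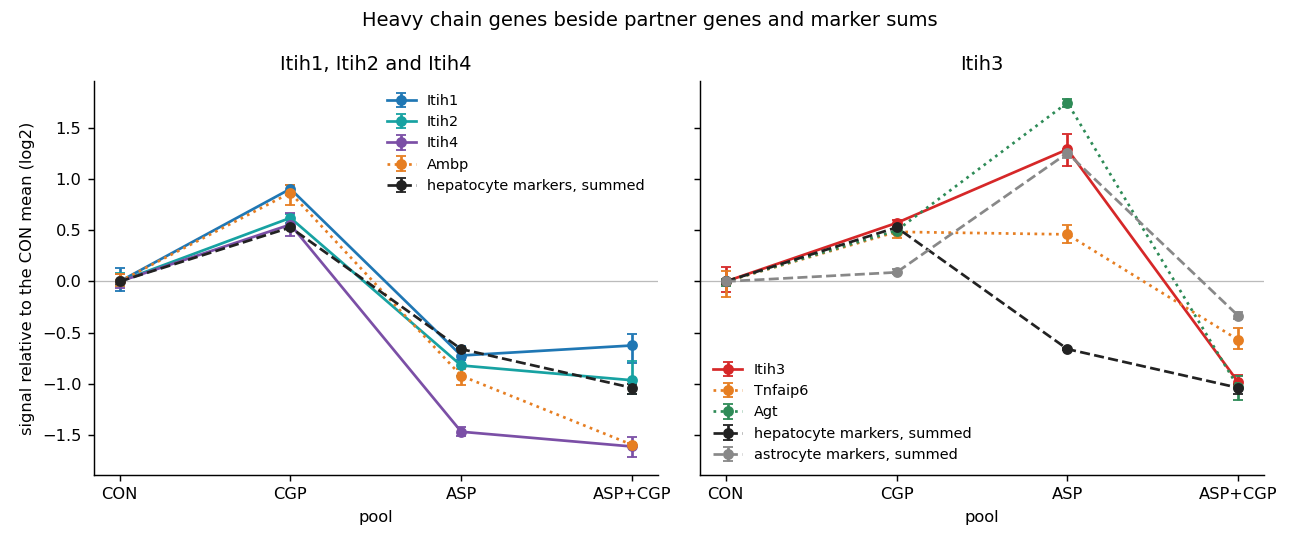
Signal relative to the CON mean (log2, vertical axis) in the 4 pools (horizontal axis) for heavy chain genes (solid lines), single partner or similar genes (dotted) and summed marker lists (dashed). Points are pool means and bars run from the lowest to the highest of 3 arrays, and the lines join pools for legibility only; in ASP, Itih3, Agt and the astrocyte sum lie above CON while Itih1, Itih2, Itih4, Ambp and the hepatocyte sum lie below it.

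The genes around the heavy chains did not share their differences from CON in CGP. For the Itih4, Itih3 and Itih1 cluster, 9 of the 10 nearest protein-coding genes in RefSeq order were measured, and none was called in CGP against CON (median 0.02). In ASP+CGP against CON, 3 of the 9 were called lower, namely Gnl3 (1.51-fold), Pbrm1 (1.47-fold) and Prkcd (1.46-fold), and against CGP the 3 called lower were Gnl3, Pbrm1 and Sfmbt1, all 3 by less than 1.5-fold. None of these calls remained under cyclic loess, where Itih3 and Itih4 kept theirs. Around Itih2 and Itih5, 9 of 10 neighbours were measured. None was called in CGP against CON, Gata3 alone was called lower in ASP+CGP against CON (1.41-fold), and Pfkfb3 alone in ASP+CGP against CGP (1.6-fold).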

How the data were processed

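Adrenal RNA pools of 4 groups were measured on Affymetrix Mouse Gene ST arrays, 3 per pool. The authors deposited a log2 signal for each probe set. It came from RMA in Partek (background correction, quantile normalisation, median polish), per the labels and the methods, and every probe set reaches 6 on at least 1 array. Precision for a pool is limited by the number of arrays, and what can be said of an exposure by having 1 pool per group. Of 26533 probe sets, 17710 carry 1 gene symbol in the platform table. A gene was taken at its single-symbol probe set with the highest mean, and 344 genes whose mean stayed under 6 in all groups were dropped.

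With limma 3.58.1 (R 4.3.3) the means of the groups were fitted over 12 arrays, with Benjamini-Hochberg adjustment over the 15900 genes of a contrast and the study's thresholds (adjusted p under 0.05, fold of at least 1.4). Itih3 was set against its paralogues by exact permutation over arrays. The steps were tested on simulated data. All probe sets of the members are given, and of each pathway list up to 4 genes with the largest differences, with Ambp and Tnfaip6 always. Members, lists and tests were chosen with earlier results of these data known. The RefSeq gene table and start site windows (GRCm38.p6) were used for neighbours and sequences, and Python 3.11.15 with matplotlib 3.10.9 for tables and plots. The build behind the probe sets is not given in the sources used here. Alternatives covered filter, scaling, moderation, arrays in the fit, weights, replicate block, fold minimum, adjustment, probe sets and leaving out each array.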

Additional observations from a re-analysis of the deposited data

Results flagged for a closer look

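For Itih3 the pools with aspartame differed from those without it in opposite directions, depending on the antagonist. All ASP arrays lay above all CON arrays (mean difference 1.29, log2), and all ASP+CGP arrays lay below all CGP arrays (-1.55). The difference between these differences was -2.84 and was not tested, since the ASP arrays had singled out the gene. The same value holds for the antagonist, with which Itih3 differed by 0.57 without aspartame and by -2.27 with it. Each group was 1 pool, so exposure and pool cannot be told apart. Most markers of brain cells were also higher in ASP than in CON, and their part in the level of Itih3 was not tested.

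Itih4 had all CGP arrays above all CON arrays (0.56) and all ASP+CGP arrays below all ASP arrays (-0.14), a difference between differences of -0.70 that was not tested. The gap between the ASP+CGP and ASP arrays of Itih4 was 0.01, and their mean difference was 0.01 with centred arrays.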

How the results depend on the processing

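Of the 3 tested comparisons, the number of heavy chains called stayed at 4, 4 and 5 under all alternatives except the following. A fold minimum of 1.8 left 1 called in CGP against CON (Itih1), 3 in the combined exposure against CON and 4 against CGP. Without a fold minimum 5 were called in ASP+CGP against CON, Itih5 being the addition. Centred arrays and cyclic loess each gave 3 against CON and 4 against CGP for the combined exposure, and array weights gave 4 against CGP. Leaving out 1 array at a time gave 4 in both comparisons with CON and 4 to 5 in ASP+CGP against CGP.

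The changes of Itih3 relative to a paralogue that lay near 0 also changed sign. That relative to Itih1 between CGP and ASP+CGP was 0.14 under cyclic loess and -0.091 to 0.0187 with 1 array left out, that relative to Itih2 was -0.0703 to 0.143 with 1 array left out, and that relative to Itih4 between CON and CGP was -0.0198 to 0.0617 with 1 array left out, a check of these pairs that was added after seeing the data. The cause was not tested. Itih3 itself was called in all 3 comparisons under every alternative at a fold of 1.4, with log2 differences of 0.52 to 0.64 against CON in CGP, -1.03 to -0.68 against CON in ASP+CGP and -1.59 to -1.23 between ASP+CGP and CGP.

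With the replicate number of the labels as a block the counts stayed at 4, 4 and 5. Samples with the same number correlated in their deviations from the group means with r of -0.15 to 0.38 (median 0.08). Those with different numbers had r of -0.39 to 0.28 (median -0.07), and 7 of 12 arrays correlated best with their own number. The labels give a number and name no pairs, so the main fit does not treat them as pairs. Array number and pooled RNA limit all p-values, and a signal on these arrays has no counting error.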
